A study of Mus musculus with 4 samples.

Results

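A set of open chromatin regions was described that both preadipocyte cultures shared and that, after differentiation, held a peak in normal cells but not in cells whose demethylase JMJD1A is inactive. The peak lists of 4 ATAC-seq libraries were merged on chromosomes 1 to 19, joining peaks that shared at least 1 bp. Of the 98469 merged regions, 1864 held a peak of the WT D0, HY D0 and WT D8 libraries and no peak of the HY D8 library, and these are called WT-kept regions. They were selected on the presence and absence of these peaks, so the pileups in the 4 libraries are given as a description and not as a finding. Sequence, position and neighbouring genes played no direct part in the choice. The rule favours weak D8 peaks, though, and base composition and position can vary with peak strength.

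The libraries came from im-scWAT cells, a line of stromal-vascular cells from the subcutaneous white fat of 5-week-old mice, immortalised with a retrovirus carrying a large T antigen and selected with puromycin. WT cells carried Jmjd1a +/+ and HY cells Jmjd1a HY/HY. The paper describes this histidine-to-tyrosine change as inactivating JMJD1A as a demethylase of lysine 9 of histone H3. D0 cells were undifferentiated (day 0). D8 cells were taken on day 8 of beige differentiation, first in indomethacin, dexamethasone, 3-isobutyl-1-methylxanthine, rosiglitazone, insulin and T3 and then in insulin, T3 and rosiglitazone. Each of the 4 groups had 1 library, so every difference below compares libraries. The genotype cannot be told apart from the culture or the mouse it was made from: the HY lists held 7 and 6 peaks on the Y chromosome at D0 and D8, against 1 in each WT list.

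Enhancers that are open in preadipocytes are commonly bound there by AP-1, TEAD and RUNX factors, and many of them close as C/EBP and PPARG factors take over the fat cell programme. CTCF, a zinc finger protein that holds chromatin loops together, binds at sites that are often open in many cell types. Methylation of lysine 9 of histone H3 is a mark of closed chromatin, and JMJD1A (Kdm3a) removes it.

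The sequences of the WT-kept regions are shown first for the motif whose share stood highest against the other classes, the CTCF motif. Each line gives 81 bases of the mm9 plus strand, 5′ to 3′, centred on the match, and the capitals mark the 12 matched bases. They are the 5 such regions outside promoters with the highest WT D8 -log10 q, a choice made after the motif shares had been seen.
Pttg1ip, 14862 bp upstream of its start, chr10:77029575-77029655: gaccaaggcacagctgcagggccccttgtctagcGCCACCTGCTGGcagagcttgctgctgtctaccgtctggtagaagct
Ugt1a10 intron, chr1:90017296-90017376: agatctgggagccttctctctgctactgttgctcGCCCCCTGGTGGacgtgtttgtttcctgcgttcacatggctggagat
Sepw1, 7619 bp upstream, chr7:16515394-16515474: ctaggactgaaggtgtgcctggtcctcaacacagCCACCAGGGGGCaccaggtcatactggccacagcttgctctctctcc
Tmem30b, 7951 bp upstream, chr12:74655229-74655309: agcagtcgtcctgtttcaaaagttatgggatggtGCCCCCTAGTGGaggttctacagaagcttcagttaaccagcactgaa
9030617O03Rik intron, chr12:102087805-102087885: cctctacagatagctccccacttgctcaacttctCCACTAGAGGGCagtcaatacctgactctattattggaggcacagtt

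The next sequences carry an AP-1 match. This motif was scarcer in WT-kept regions than in regions open in both D0 lists and without a WT D8 peak. They belong to the 3 WT-kept regions with a match and the highest WT D8 pileup. Each line gives 81 bases of the mm9 plus strand centred on the match, which is in capitals.
Cebpb promoter, chr2:167513753-167513833: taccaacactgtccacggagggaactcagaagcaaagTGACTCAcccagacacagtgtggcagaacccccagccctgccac
C85492, 27055 bp upstream, chr9:121932232-121932312: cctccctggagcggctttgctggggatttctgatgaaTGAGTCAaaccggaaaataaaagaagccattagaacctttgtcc
Lgals1 intron, chr15:78758582-78758662: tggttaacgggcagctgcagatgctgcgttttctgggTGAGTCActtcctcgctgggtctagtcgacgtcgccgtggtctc

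The 4 lists held between 41228 and 77994 peaks. The pileup, the number of overlapping tags at a peak's summit, and the local background, the pileup that the surrounding sequence gives on average, were solved from the deposited fold and -log10 p of each peak. The genome-wide background rate, which scales with sequencing depth, was 0.659 in WT D0, 0.708 in HY D0, 0.531 in WT D8 and 0.494 in HY D8. All 8 adipocyte markers had a promoter peak in both D8 lists, among them Fabp4, Adipoq, Plin1 and Cidec, which had none at D0. Of 6 preadipocyte markers, 6 had a promoter peak in WT D0 and 4 in HY D0, and Pdgfrb was the only one with a peak at D8. The Pdgfra promoter had a summit pileup of 50 in WT D0 and no peak in HY D0. Of 5 beige cell markers, Ucp1 and Dio2 had no promoter peak in any list, while Cidea, Ppargc1a and Prdm16 had one in both D8 lists, with pileups of 9, 14 and 11 in WT D8 and 13, 15 and 12 in HY D8. The 5 blood cell markers had none. Of 5 endothelial markers, 3 had a promoter peak in WT D0 (Kdr 21, Tek 23 and Pecam1 9) and 2 in HY D0 (Kdr 21 and Tek 19), against 0 in WT D8 and 1 in HY D8. Of 5 skeletal muscle markers, Acta1 had a peak in WT D8. The part of endothelial cells in the results was not tested.

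The first question was how much of the shared preadipocyte chromatin that stayed open in WT cells lacked a peak in HY cells. The 25720 regions with a peak in both D0 lists and in WT D8 included the 1864 WT-kept regions, a share of 7.25% (Wilson 95% interval 6.94% to 7.57%). The mirror class, with a peak in both D0 lists and HY D8 and none in WT D8, held 6651 of 30507 regions (21.8%, 21.3% to 22.3%) and is called HY-kept. HY-kept regions thus outnumbered WT-kept regions. When every list was shortened to the 41228 peaks of the shortest one, the shares were 7.15% and 12.9%. They were 12.3% and 32.4% when single D8 peaks were counted and at least 50% of each had to be covered by a peak of another list for the 2 to be shared, and 2.95% and 9.01% when the 3 peaks needed a -log10 q of at least 5. A further 23856 regions were open in all 4 lists, and 24254 were open in both D0 lists and in neither D8 list. In 16592 of the 23856 (69.6%) the HY D8 pileup, divided by its library's background rate, was above that of WT D8. The median log2 ratio of HY D8 over WT D8 there was 0.16. The part of this difference in the 2 shares was not tested. Intervals here and below cover counting error only, since each group had 1 library.

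WT-kept regions were rare among strong peaks. Of 154 regions in the bin with a WT D8 pileup of 4 to 5, 53 lacked an HY D8 peak (34.4%, 27.4% to 42.2%). In this bin all WT D8 pileups were 5, the lowest in that list, while HY D8 pileups went down to 4. The share was 20.6% at a pileup of 8 to 9 and 11.1% at 10 to 12. It was 2.42% at 16 to 20 and 0.577% at 21 to 30. Only 1 of 4553 regions with a pileup of 31 to 50 lacked an HY D8 peak, and 0 of 1399 above 50 did (upper bound 0.274%). The mirror share fell from 78.5% to 0.184% over the same range and lay above the WT-kept share in each bin up to a pileup of 50.

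**Figure D1:**
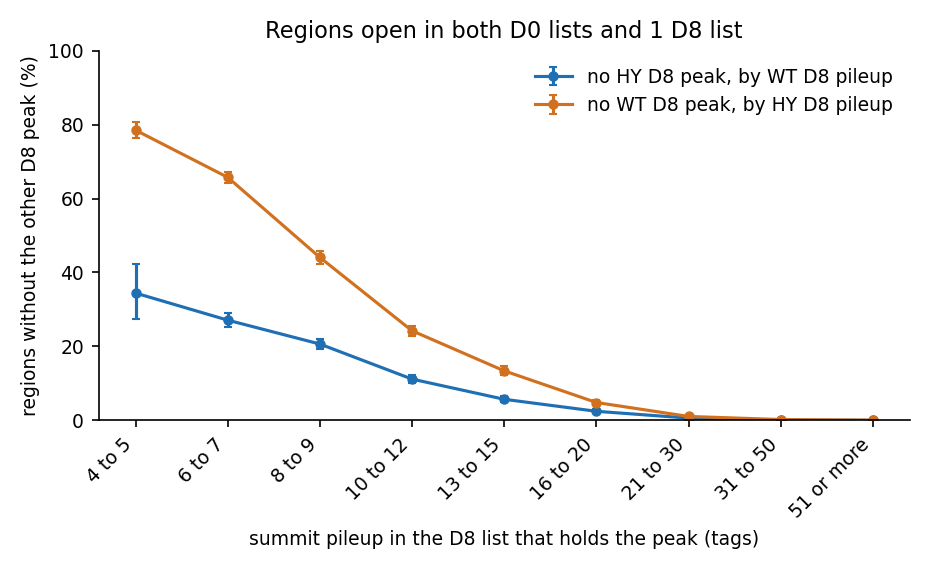
Percent of regions open in both D0 lists and 1 D8 list that lack a peak in the other D8 list (vertical axis), by the summit pileup in the D8 list that holds the peak (horizontal axis, in tags); bars are Wilson 95% intervals. The WT-kept share (blue) drops from 34.4% at a pileup of 4 to 5 to 2.42% at 16 to 20, below the HY-kept share (orange) up to a pileup of 50. In the first bin all WT D8 pileups are 5, while HY D8 pileups go down to 4.

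Most WT-kept regions had weak peaks at D8 and moderate ones at D0. Their summit pileup in WT D0 ranged from 5 to 65 with a median of 15. In HY D0 it ranged from 5 to 67 with a median of 17. In WT D8 it ranged from 5 to 43 with a median of 9, and 1180 regions (63.3%) had a pileup of 9 or less while 28 had one above 20. Regions open in all 4 lists had medians of 29, 33, 18 and 20 in WT D0, HY D0, WT D8 and HY D8. After division by each library's background rate, the WT D8 pileup of a WT-kept region had a median log2 ratio of -0.47 to its WT D0 pileup (quartiles -0.91 and -0.01), and it was higher in 432 of them (23.2%). At D0 the depth-adjusted HY pileup was close to that of WT (median log2 ratio of HY D0 over WT D0 0.03, quartiles -0.27 and 0.31). The same ratio was 0.10 in HY-kept regions and 0.07 in regions open in all 4 lists.

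**Figure D2:**
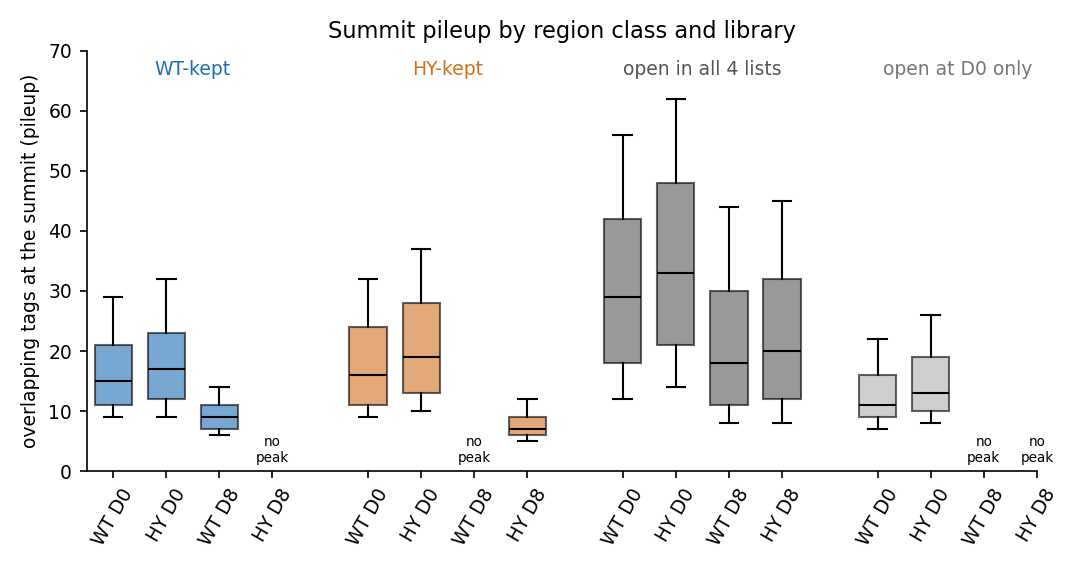
Summit pileup (vertical axis, in tags) of the strongest peak of each library in 4 classes of regions; boxes span the quartiles around the median and whiskers reach the 10th and 90th percentiles. WT-kept regions have medians of 15, 17 and 9 in WT D0, HY D0 and WT D8, and regions open in all 4 lists have 29, 33, 18 and 20.

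In each WT-kept region the 3 peaks mostly marked 1 place. The strongest WT D8 peak shared bases with the strongest WT D0 peak in 1823 of 1864 regions (97.8%) and with the strongest HY D0 peak in 1844 (98.9%), and its summit lay a median of 40 bp from that of WT D0. The regions were between 102 and 1743 bp wide (median 348.5). The nearest HY D8 peak lay a median of 5502 bp away, within 200 bp for 60 regions (3.22%) and within 1000 bp for 339 (18.2%). At the edge of the rule stood an intronic region of BC017612, chr9:15315508-15315652, with an HY D8 peak 8 bp away and pileups of 8, 6 and 8 in WT D0, HY D0 and WT D8. Next came an intronic region of Klhl23, chr2:69660464-69661166, with an HY D8 peak 16 bp away. The third was a region 236 bp upstream of AK129341, chr9:8134365-8134640, with one 17 bp away. Just outside the rule, an HY D8 peak shared 18 bp with the other peaks at chr1:40244806-40245209 near Il1r1, 26 bp at chr6:34877139-34877544 in Stra8 and 28 bp at chr11:115396696-115397167 in Sumo2.

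The strongest WT-kept regions by WT D8 -log10 q lay at unrelated genes. The first was at chr17:13820465-13821149, 103 bp upstream of the Gm16046 transcript, inside Tcte2. Its pileup was 48 in WT D0, 42 in HY D0 and 43 in WT D8, the highest WT D8 pileup of all 1864, and the nearest HY D8 peak was 595 bp away. The second, chr2:167932206-167932789, lay 25937 bp from the start of Pard6b, a cell polarity gene, with pileups of 17, 18 and 21 in the same order. The third, chr2:50733234-50733753, lay 271266 bp from Rnd3, with 28, 15 and 18. A region at chr13:37329969-37330213, whose nearest gene was Ly86, had 12, 8 and 15. In the first intronic one, in Sdcbp (syntenin-1, a PDZ scaffold protein) at chr4:6310666-6311540, the pileups were 26, 48 and 19, and an HY D8 peak lay 191 bp away. In the first 4 of these the WT D8 pileup was above the weaker of the D0 pileups, and at Sdcbp it was below both.

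The other 7 of the 12 strongest were similar in strength, with WT D8 pileups of 14 to 24. They lay in introns of Arhgef33 (chr17:80711889-80712250) and of Esr1, the oestrogen receptor alpha gene (chr10:5613920-5614124), and in an exon of Zswim5 near Urod, a haem synthesis gene (chr4:116659332-116659711). The Esr1 region was weak at D0, with a pileup of 7 in WT D0 and 9 in HY D0 against 15 in WT D8. A region 2015 bp upstream of Ptprs, a receptor tyrosine phosphatase gene (chr17:56617666-56618101), had 36, 25 and 24. The promoter of H2-T24, a non-classical MHC class I gene (chr17:36157363-36157962), had 33 in WT D0, 9 in HY D0 and 19 in WT D8. The HY D0 peak at H2-T24 was thus the weakest of its 3. A region at chr7:141718997-141719491, 141935 bp from D7Ertd443e, had 13, 14 and 15. The last, 14002 bp upstream of Vav1 (chr17:57404450-57404869), had 13, 22 and 17.

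By the share at promoters, WT-kept regions stood between regions open at D0 only and regions open in all 4 lists. Regions open in all 4 lists were also stronger, with a median WT D8 pileup of 18 against 9 in WT-kept regions. Position and base composition were not compared at like pileup, so the part of peak strength in these shares was not tested. Of the 1864, 262 (14.1%) had their D8 summit at a promoter, taken as 1000 bp upstream to 100 bp downstream of a transcription start site. HY-kept regions had 9.50%, regions open in all 4 lists 42.8% and regions open at D0 only 6.49%. The WT-kept share was 4.55 percentage points above the HY-kept share (Newcombe 95% interval 2.88 to 6.34) and below that of regions open in all 4 lists (difference -28.8 points, interval -30.4 to -27.0). Introns held 802 WT-kept regions, intergenic sequence 682 (36.6%) and exons 118 (6.33%). The exon share was the highest of the 4 classes, 2.27 points above that of regions open in all 4 lists (1.22 to 3.49) and 2.35 points above that of HY-kept regions (1.21 to 3.62). The median distance from a WT-kept summit to the nearest coding start was 10744 bp, against 18468 bp for HY-kept regions. Outside promoters it was 14389 bp, against 21997 bp for HY-kept regions and 16549 bp for regions open in all 4 lists. A wider promoter, from 2000 bp upstream to 1000 bp downstream, raised the WT-kept share to 22.4%.

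Of the promoter regions, 232 belonged to a protein-coding gene, and their median WT D8 pileup was 10. Besides Gm16046 and H2-T24, the strongest by -log10 q was the promoter of Kcnn1, a calcium-activated potassium channel gene (chr8:73380846-73381031), with pileups of 9, 16 and 16 in WT D0, HY D0 and WT D8. Cd59b, which encodes a membrane inhibitor of complement (chr2:103909782-103910241), had 15, 16 and 12. C130039O16Rik (chr12:85559784-85559960) had 23, 21 and 19. Car9, a carbonic anhydrase gene known for its response to low oxygen (chr4:43521517-43521784), had 29, 19 and 14. Clec2l, a C-type lectin gene (chr6:38612865-38613315), had 8, 12 and 12, and Ppm1j, a phosphatase gene (chr3:104583849-104584074), had 18, 25 and 13. Each of these summits lay within 121 bp upstream of the annotated start, and their pileups at D8 were no more than 19. The promoter region of Cebpb, shown above, had 34, 25 and 30. Cebpb encodes an early factor of fat cell differentiation. Its local background in WT D8 was 6.71, well above the class median of 0.756, and an HY D8 peak lay 453 bp away.

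The base composition of WT-kept regions was also intermediate. The 201 bases around the summit had a median GC content of 52.7%, against 49.8% in HY-kept regions, 48.8% in regions open at D0 only and 57.2% in regions open in all 4 lists. Outside promoters the medians were 51.7%, 49.3%, 48.3% and 52.7% in that order. GC content and the number of promoters therefore moved together with the class.

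Motif letters were looked for on either strand in the 201 bases around the summit, and shares outside promoters (distal regions) are given first. The CTCF motif was found in 160 of 1602 distal WT-kept regions (9.99%, Wilson 95% interval 8.61% to 11.6%). It was found in 6.86% of distal HY-kept regions, 5.56% of those open in all 4 lists and 4.51% of those open at D0 only. With promoters included, it was found in 3.72% of all 98469 regions and 9.01% of WT-kept regions. The distal WT-kept share was higher than the HY-kept share by 3.13 percentage points (Newcombe 95% interval 1.60 to 4.81). It was higher than that of regions open in all 4 lists by 4.42 points (2.99 to 6.03). With single D8 peaks and 50% coverage these differences were 1.67 and 2.05 points. The 5 CTCF sequences printed above come from this group. At those sites the pileups in WT D0, HY D0 and WT D8 were 14, 12 and 14 near Pttg1ip, 15, 20 and 12 in Ugt1a10, 8, 10 and 12 near Sepw1, 16, 18 and 11 near Tmem30b and 9, 11 and 11 in 9030617O03Rik. The 31 bases at the Ugt1a10 summit occurred at 2 places in mm9, so its tags may be shared with another copy. The 160 regions were otherwise weak, with median pileups of 13, 15 and 8 and a median width of 287 bp, and the match lay a median of 45 bp from the summit.

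The AP-1 motif, TGANTCA, went the other way. It was found in 315 distal WT-kept regions (19.7%, 17.8% to 21.7%), in 30.4% of HY-kept regions, 22.5% of regions open in all 4 lists and 32.4% of regions open at D0 only, and in 21.5% of all regions. The WT-kept share was below the HY-kept share (difference -10.7 percentage points, interval -12.9 to -8.37) and below that of regions open at D0 only (difference -12.7 points, interval -14.7 to -10.6). It was also below that of regions open in all 4 lists (difference -2.79 points, interval -4.80 to -0.661). In the 3 WT-kept regions with a match and the highest WT D8 pileup, the pileups in WT D0, HY D0 and WT D8 were 34, 25 and 30 at Cebpb, 27, 27 and 26 near C85492 and 45, 67 and 22 in Lgals1. All 3 had a local background in WT D8 of 4.91 to 6.71. TEAD letters, GGAATG, were found in 15.4% of distal WT-kept regions and 21.3% of distal HY-kept regions (difference -5.98 points, interval -7.96 to -3.87). RUNX letters, TGTGGTT, differed from the HY-kept share by -2.80 points (-4.03 to -1.42). Outside promoters, for both of these the WT-kept share was within counting error of that of regions open in all 4 lists.

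Other motifs differed in either direction. EBF letters, CCCNNGGG, were found in 10.4% of distal WT-kept regions, 2.55 points above the HY-kept share (interval 0.978 to 4.27) and below that of regions open in all 4 lists (difference -1.85 points, interval -3.36 to -0.168). SP/KLF letters, CCCGCCC, were 2.71 points above the HY-kept share (1.52 to 4.07) and below that of regions open in all 4 lists (difference -3.02 points, interval -4.21 to -1.65). NFI letters, TTGGCA, were below both the HY-kept share (difference -2.36, interval -4.26 to -0.333) and that of regions open in all 4 lists (difference -3.41, interval -5.17 to -1.50). For C/EBP letters, TTGCNNAA, the WT-kept share of 12.2% did not differ from the HY-kept share beyond counting error (difference 1.41 points, interval -0.307 to 3.26), and it was 3.29 points above that of regions open at D0 only (1.73 to 5.02). PPAR letters, AAAGGTCA, and the glucocorticoid receptor letters, ACANNNTGT, gave intervals that include 0 against every class outside promoters. With promoters included, the CTCF share was 9.01% in WT-kept regions, above HY-kept regions by 2.38 points (1.01 to 3.88) and above regions open in all 4 lists by 5.29 points (4.05 to 6.70). The AP-1 share was then still below HY-kept regions (difference -10.6 points, interval -12.6 to -8.48), but its order against regions open in all 4 lists turned, to 3.57 points above them (1.83 to 5.43). The TEAD share was then 2.05 points above regions open in all 4 lists (0.471 to 3.76), and the glucocorticoid receptor share 1.34 points above them (lower bound 0.352) and below regions open at D0 only (difference -1.31 points, interval -2.31 to -0.128). The NFI interval against regions open in all 4 lists then included 0 (0.224 points, -1.31 to 1.90). The class open in all 4 lists has 42.8% of its regions at promoters against 14.1% for WT-kept regions. Over all 98469 merged regions, promoters included, the share with a match was 17.0% for TEAD, 6.67% for RUNX, 11.6% for C/EBP and 9.91% for EBF. It was 16.3% for NFI, 9.23% for SP/KLF, 1.19% for PPAR and 6.33% for the glucocorticoid receptor. A match is a description of the letters and does not show that a factor binds.

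**Figure D3:**
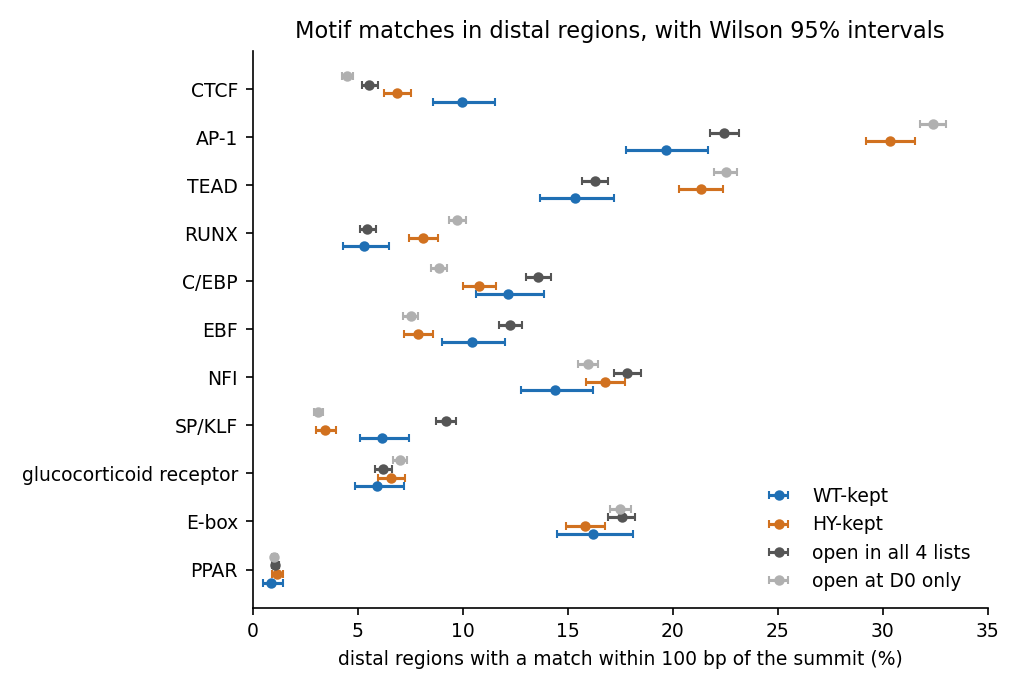
Percent of distal regions with a motif match within 100 bp of the summit (horizontal axis) for 11 motifs and 4 classes of regions; bars are Wilson 95% intervals. WT-kept regions (blue) are highest for CTCF at 9.99% and lowest for AP-1 at 19.7%.

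Since WT-kept regions are weak, both motifs were also compared at like WT D8 pileup, with distal regions open in all 4 lists. CTCF letters were found in 10.9% of WT-kept regions and 8.53% of the others at a pileup of 5 to 7 (difference 2.39 points, interval -0.505 to 5.66), in 10.7% and 7.67% at 8 to 9 (3.02, 0.372 to 6.13) and in 11.5% and 6.51% at 10 to 12 (4.96, 1.83 to 8.89). At 13 to 20 the order turned, with 6 of 189 WT-kept regions (3.17%) against 5.77% (difference -2.60, interval -4.47 to 1.05). The interval of the CTCF difference thus excluded 0 only in the bins from 8 to 12. AP-1 letters were found in a lower share of WT-kept regions in all 4 bins, with an interval that excluded 0 at 10 to 12 (14.1% against 23.0%). HY-kept regions, compared in the same way by HY D8 pileup, had a higher share of AP-1 letters in each bin, with intervals that excluded 0 up to a pileup of 12 (30.8% against 23.2% at 5 to 7), and a CTCF share within counting error of the others in every bin.

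**Figure D4:**
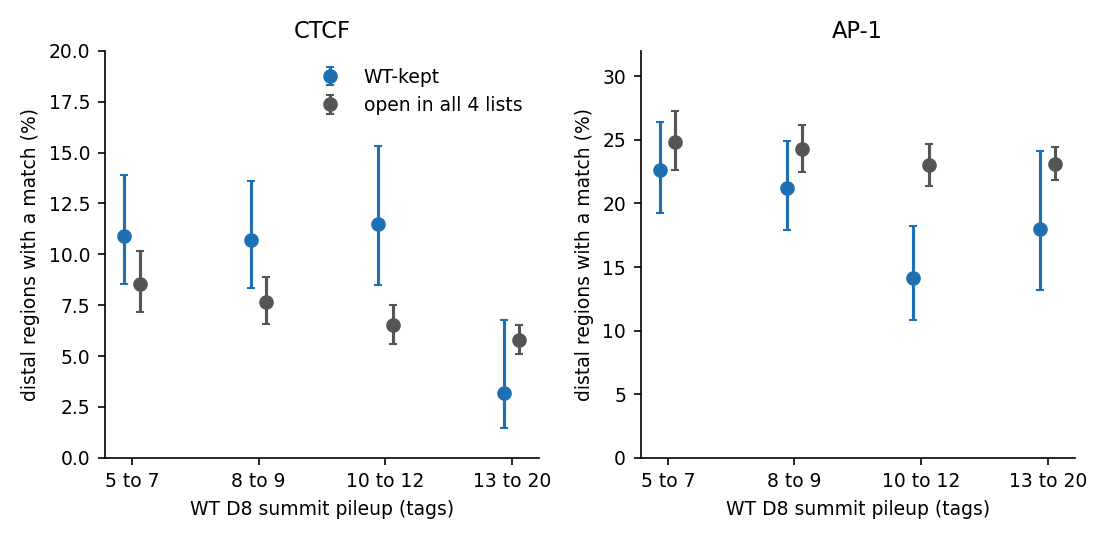
Percent of distal regions with a CTCF (left) or AP-1 (right) match (vertical axis) by WT D8 summit pileup (horizontal axis, in tags), for WT-kept regions (blue) and regions open in all 4 lists (grey); bars are Wilson 95% intervals. At a pileup of 10 to 12, 11.5% of WT-kept regions against 6.51% of the others carry CTCF letters, and 14.1% against 23.0% carry AP-1 letters.

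Read the other way, 919 distal regions with a peak in both D0 lists and WT D8 carried CTCF letters, and 160 of them (17.4%) lacked an HY D8 peak. Without the letters the share was 10.1% (9.59% to 10.6%), and these Wilson intervals did not overlap. With AP-1 letters it was 9.33% (8.39% to 10.4%) and without them 10.8% (10.3% to 11.4%). In the mirror, 35.2% of regions with CTCF letters lacked a WT D8 peak against 30.3% without, with intervals that did not overlap, so the share was higher with the letters in both classes. For AP-1 letters the mirror shares were 37.4% with them and 28.4% without.

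In 66 of the 1864 regions (3.54%) the 31 bases at the summit occurred more than once in mm9, against 2.59% of HY-kept regions (difference 0.955 points, lower bound of its interval 0.102) and 3.37% of regions open in all 4 lists, and 0 of the 12 strongest were among them. Stretches of up to 200 kb were ranked by their number of WT-kept regions, and the second to the fourth are described. The second, chr3:104413784-104583910, held 6 WT-kept regions, 5 regions open in all 4 lists and no HY-kept region. It spans Slc16a1, the gene of a lactate and ketone body transporter, and Fam19a3 and ends at the Ppm1j promoter, and its WT D8 pileups were 5 to 15. The third, chr3:51851037-52002449, lay at Maml3, a Notch coactivator gene, and held 5 WT-kept regions with WT D8 pileups of 6 to 8 and 1 HY-kept region. The fourth, chr7:119512753-119643258, held 5 with pileups of 7 to 11 at Micalcl and Parva, a focal adhesion gene, and no HY-kept region.

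The share of WT-kept regions differed between chromosomes. The highest shares were on chromosome 8, with 131 regions (9.03%, 7.67% to 10.6%), and chromosome 12, with 89 (8.86%, 7.25% to 10.8%), and their order lies within counting error. It was lowest on chromosome 14, with 43 (5.21%, 3.89% to 6.95%). In regions open in all 4 lists, the median log2 ratio of depth-adjusted HY over WT pileup was -0.16 at D0 and -0.07 at D8 on chromosome 12. These were the only values below 0 among the 19 chromosomes. On chromosome 14 they were 0.19 and 0.31, the highest of the 19. On chromosome 8 they were 0.09 and 0.10. The part of this chromosome-wide difference in the WT-kept share was not tested. Over the 19 chromosomes the D0 ratio and the WT-kept share had Pearson's r of -0.51 and a Spearman rank correlation of -0.31, and without chromosomes 12 and 14 r was -0.17. The chromosomes share the same 4 libraries.

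Genes near the regions were read from lists of known function. The pileups given for a gene are those of its strongest region within 50 kb, which can lie in or beside another gene. Of 21281 protein-coding genes, 3402 (16.0%) had a WT-kept region within 50 kb of a start site and 7569 (35.6%) an HY-kept region. The share of nearby regions that were WT-kept is given beside the count of genes, since the count also depends on how many regions lie near a gene. Genes of the fat cell programme had 7 of 24 with a WT-kept region, but only 8 of the 116 regions open in both D0 lists and WT D8 near them were WT-kept (6.90%). With a -log10 q of at least 5, in all 4 lists or in the 3 with a peak, the count of genes was 1 in place of 7. Counts for other lists also moved with the settings, the progenitor count between 0 and 3. Cfd, which encodes adipsin, had one 2150 bp downstream of its start, chr10:79355435-79355797, with pileups of 17, 26 and 19 in WT D0, HY D0 and WT D8. At Plin4, a lipid droplet coat gene, it lay 24206 bp upstream, in the Sema6b promoter, with 11, 14 and 13. The leptin gene Lep had one 35907 bp upstream with 13, 18 and 8. Pck1 (phosphoenolpyruvate carboxykinase) had 24, 14 and 9, and Retn (resistin) had 7, 9 and 9. These lay 33443 bp downstream of the Pck1 start and 24580 bp upstream of Retn, at a promoter within Stxbp2. Acsl1 and Fasn, both of fatty acid metabolism, had 18, 12 and 14 and 11, 22 and 13. The Acsl1 region lay 2749 bp upstream. The Fasn region lay 24442 bp downstream of the start, at a promoter within Rfng, with a WT D8 -log10 q of 1.67.

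Thermogenic and mitochondrial regulators had 4 of 22 genes with a WT-kept region, and 4 of 75 nearby regions were WT-kept (5.33%, 2.09% to 12.9%). At Ppargc1b, which encodes the mitochondrial coactivator PGC-1 beta, the region lay in an intron 5344 bp into the gene, chr18:61554500-61554773. Its pileup was 28 in WT D0, 38 in HY D0 and 19 in WT D8, and the nearest HY D8 peak lay 3505 bp away. The WT D8 -log10 q there was 4.40, close to the class median of 4.38. Another lay at the promoter of Zfp516, a zinc finger gene of the brown fat programme, chr18:83083484-83083987, with 23, 30 and 22. Kcnk3, a potassium channel gene, had 8, 9 and 10, and Slc25a20, the mitochondrial carnitine carrier gene, had 6, 8 and 7. These lay 37623 bp upstream of Kcnk3 and 42510 bp downstream of the Slc25a20 start, in a Prkar2a intron. The loci of Ppargc1a, Ucp1, Ppara and Cidea, genes of the thermogenic programme, and of Kdm3a itself had 0 WT-kept regions within 50 kb and between 2 and 4 regions open in all 4 lists each.

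Genes of adipose progenitors had 1 of 22 with a WT-kept region against 15 with an HY-kept region. It was Ly6c1, a surface antigen gene, whose promoter had pileups of 30, 26 and 9. The 31 bases at its summit occur at 2 places in mm9, so its tags may be shared with another copy. Near these genes 1 of 52 regions was WT-kept (1.92%, 0.340% to 10.1%) and 25 of 76 were HY-kept (32.9%, 23.4% to 44.1%). Extracellular matrix genes had 4 of 22, with Col4a1, Col4a2, Col1a1 and Lox, and 6 of 97 nearby regions were WT-kept (6.19%). The Col4a2 region, 9768 bp from the start, had 22, 19 and 13. The Col1a1 region, 24988 bp from the start and in an Sgca intron, had 36, 32 and 8. Genes of AP-1 and YAP/TEAD factors and their targets had 10 of 24, and 12 of 135 nearby regions were WT-kept (8.89%, 5.16% to 14.9%). Fosb, an AP-1 subunit gene, had 14, 19 and 19, and Mafk, which encodes a small Maf partner, had 42, 44 and 18 at an exon 550 bp from its start. Junb and Fosl1, both AP-1 subunit genes, had 10, 9 and 11 and 24, 30 and 16. The Junb region lay 34668 bp upstream, in a Best2 exon. The Fosl1 region lay 12867 bp downstream of the start, at a promoter outside the gene. Jub, a gene of the Hippo pathway, had 12, 14 and 14.

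Wnt genes had 8 of 24 with a WT-kept region, and 11 of 77 nearby regions were WT-kept (14.3%, 8.17% to 23.8%), the highest share of the 12 lists. One exonic region of Wnt6, chr1:74831123-74831272, counted for both Wnt6 and Wnt10a, ligands known to hold back fat cell formation, and had 10, 12 and 9. Wnt9a, also a ligand gene, had 17, 17 and 9 at a region 23751 bp upstream, in a Wnt3a intron. Lef1, a transcription factor gene of the pathway, had 18, 20 and 9, and Tcf7l1, another, had 26, 15 and 8. Contractile and cytoskeletal genes had 7 of 21, among them Tpm2 (tropomyosin) through the Car9 promoter region, Actn4 and Actn1 (actinins), Cnn1 (calponin) and Lmod1, with WT D8 pileups of 8 to 14. Near these genes 10 of 126 regions were WT-kept (7.94%), close to the 7.25% over all regions. TGF-beta and BMP genes had 3 of 26 (Smad3, Smad6 and Tgfbr3), where 4 of 91 nearby regions were WT-kept (4.40%).

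Genes that answer to glucocorticoid and cAMP, pathways on which the induction medium acts, had 6 of 20, and 10 of 110 nearby regions were WT-kept (9.09%, 5.01% to 15.9%). They included Cebpb and Fkbp5, a chaperone gene induced by glucocorticoid, which had 3 WT-kept regions within 50 kb and pileups of 23, 27 and 10 at the strongest. Nr4a1, a nuclear receptor gene, had 16, 10 and 11, and the phosphodiesterase gene Pde4d had 11, 13 and 9. The clock gene Per1 had 40, 38 and 24, at a summit whose 31 bases occur 8 times in mm9. Intergenic sequence held the Nr4a1 region, 41918 bp downstream of the start, and the Per1 region, 32857 bp upstream. Genes of the methylation of lysine 9 of histone H3 had 2 of 20, and 4 of 88 nearby regions were WT-kept (4.55%). The 2 were the methyltransferase genes Ehmt2 (16, 18 and 11) and Ehmt1 (14, 18 and 8). The Ehmt1 region lay 43155 bp downstream of the start, at a promoter outside the gene. The lists of liver and neuron genes, taken as controls, had 1 of 20 and 2 of 18, with 1 of 36 (2.78%) and 2 of 46 (4.35%) nearby regions WT-kept. The interval of the WT-kept share included 7.25% for each list but Wnt, and it included 21.8% for the HY-kept share of 7 lists. The HY-kept share was above that for progenitor genes, and below it for thermogenic (11.3%), adipocyte (10.7%), glucocorticoid and cAMP (11.5%) and H3K9 methylation genes (12.5%). A median WT D8 pileup of 7.5 to 14.5 was found for the WT-kept regions near the 12 lists, against 9 for all.

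**Figure D5:**
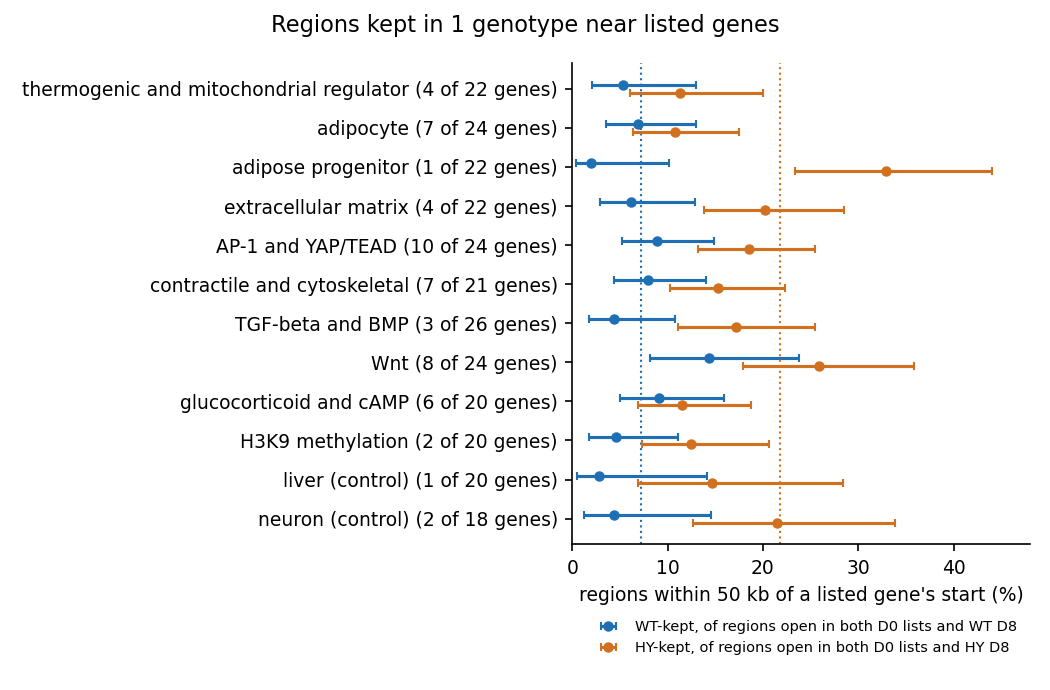
Percent of regions within 50 kb of listed genes that are WT-kept (blue) or HY-kept (orange), with Wilson 95% intervals, for 12 gene lists; the counts after each name are genes with a WT-kept region. Dotted lines mark 7.25% and 21.8%, the shares over all regions, and the WT-kept share near Wnt genes is 14.3%.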

How the data were processed

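ATAC-seq was run on 1 library for each of 4 groups. The authors called peaks against mm9 and deposited 1 narrowPeak list per library. Per the labels and the submitters' processing notes, Bowtie2, SAMtools, Picard and deepTools were used. The peak threshold, tool versions and any Tn5 shift are not given in the sources used here. The deposited columns were the fold enrichment (a ratio over local background), -log10 p and -log10 q of each summit, and a score, which was not used. Background and pileup were solved from the deposited fold and -log10 p, and 100% of peaks were solved within 0.002. Read totals were not used here, and the background rate stood in for depth.

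Lists were merged on chromosomes 1 to 19 with BEDTools 2.31.1 (1 bp overlap). Sequence was read with samtools 1.23.1, and statistics used SciPy 1.17.1, pandas 2.3.3 and NumPy 2.4.6. Genes came from GENCODE vM1. Summits were those of the D8 peak, or of the WT D0 peak where there was none at D8. Wilson and Newcombe 95% intervals describe shares of regions and cover counting error only, since each group had 1 library. With 1 library per group no test between conditions was possible, and no p-value is given. The steps were tested on simulated data.

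The regions, gene lists and motifs were chosen with earlier results of these data known. Named were the 12 members with the highest WT D8 -log10 q, the 8 such promoter members, up to 5 genes per list (all genes for the adipocyte list, whose last 2 were added after their values were seen), the 4 stretches of 200 kb with the most members (ties by chromosome order, then position), of which the first, with the most members, is not reported here, the 3 members with an AP-1 match and the highest pileup, 3 regions on either side of the rule, and 6 chosen loci (Ppargc1a, Ppargc1b, Ucp1, Ppara, Cidea and Kdm3a). The CTCF regions were added after their values were seen.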

Additional observations from a re-analysis of the deposited data

Results flagged for a closer look

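Chromosome X was left out of the classes above, and 39 regions there had the WT-kept pattern, 7.08% of the X regions with a peak in both D0 lists and WT D8. It was taken up because it is data outside the comparisons above, and there is no control library for it. HY-kept regions on X numbered 137 (21.1%), and 512 were open in all 4 lists. The median WT D8 pileup of the 39 regions was 8.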

How the results depend on the processing

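No paired analysis was possible because each group held 1 library, and for the same reason no replicate could be left out. Of 66 alternative values for the main results, 40 were labelled the same, which does not mean equal. For counts the label means within a fixed ratio of the main count, such as 1498 regions against 1864 with lists of equal length. A CTCF difference of 2.05 points against 4.42 was also labelled the same. Only the motif differences have a sign that could reverse, and 0 did. The AP-1 difference from regions open in all 4 lists was not among them. When D8 peaks took the place of merged regions and 50% of each had to be covered, there were 3406 WT-kept peaks (12.3%, mirror 32.4%), with 21.8% at promoters, a median GC of 53.7%, 15.6% with AP-1 letters and 5699 genes within 50 kb. With -log10 q of at least 5 in all 4 lists, 8.94% lacked an HY D8 peak (mirror 16.4%), with 17.4% at promoters, a median pileup of 10 and 20.3% with AP-1 letters. With that threshold in the 3 lists with a peak only, 595 regions were left (2.95%, mirror 9.01%), with 15.8% at promoters, a median pileup of 10 and 1221 genes. With lists of equal length the mirror was 12.9% and AP-1 letters 22.0%. The wide promoter gave 22.4%. A window of 50 bp each side gave a GC of 54.5% and AP-1 letters in 11.7%, and strict AP-1 letters gave 15.0%. Distances of 10 kb and 100 kb gave 1121 and 5474 genes. The cause of these shifts was not tested. The alternatives for the motif differences and the gene lists were chosen after seeing the data. The CTCF difference was 1.67 to 4.43 points from HY-kept regions and 2.05 to 5.25 points from regions open in all 4 lists, lowest with 50% coverage, and the AP-1 difference -13.4 to -7.77 in 6 alternatives each. Of 60 alternative counts of listed genes, 37 lay within the same fixed ratio of the main count, which does not mean that they were equal. With 50% coverage, extracellular matrix genes went from 4 to 12, TGF-beta and BMP genes from 3 to 8, H3K9 methylation genes from 2 to 7, liver genes from 1 to 4 and progenitor genes from 1 to 3. With -log10 q of at least 5 in all 4 lists, adipocyte genes went from 7 to 1, H3K9 methylation genes from 2 to 5 and liver genes from 1 to 5. With that threshold in 3 lists, thermogenic genes went from 4 to 1, adipocyte genes from 7 to 1, Wnt genes from 8 to 4, AP-1 and YAP/TEAD genes from 10 to 5, contractile genes from 7 to 2, extracellular matrix genes from 4 to 2, glucocorticoid and cAMP genes from 6 to 3, neuron genes from 2 to 1, and TGF-beta and BMP, progenitor and liver genes to 0. With lists of equal length, glucocorticoid and cAMP genes went from 6 to 2, neuron genes from 2 to 1, and progenitor and liver genes from 1 to 2.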
